A study of Mus musculus with 2 samples.

Results

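The 10 transcription factors described here set the course of white blood cell formation: the Ets factors Spi1 (PU.1), Ets1, Fli1 and Elf1, the C/EBP factors Cebpa, Cebpb, Cebpd and Cebpe, and the factors Runx1 and Gfi1. Members were found by gene symbol, as all probe sets that the platform's annotation assigns to 1 of these names. The rule found 11 probe sets for 9 of the 10 genes, out of 8251 genes with a single-gene probe set on the arrays. Cebpe was assigned to no probe set and has no value here. Ets1 and Elf1 had 2 probe sets each and the other 7 genes had 1 each. The samples were 2 oligonucleotide arrays of mouse spleen, both made from purchased total RNA with 1 catalogue number, and they form 1 group, called array 1 and array 2. No strain, age, sex, genotype or treatment is given in the sources used here, and nothing says whether the arrays came from separate animals. The spread between them may therefore be technical, and no condition could be compared with another.

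In blood formation these factors work in layers. PU.1 opens the myeloid and B cell programmes. C/EBPα acts with it to commit progenitors to granulocytes and monocytes, C/EBPβ takes over when granulocytes are made on demand and in macrophages, and C/EBPδ rises in inflammation and late granulocyte maturation. Runx1 is needed for the first blood stem cells and later binds with many lineage factors, and Gfi1 is a repressor that favours neutrophils over monocytes. Ets1 is abundant in resting T and B cells, Fli1 serves platelet precursors and endothelium as well as blood progenitors, and Elf1 binds enhancers in lymphoid and endothelial cells.

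To show the regulatory sequence of genes with a clear signal and of one with a dim signal, the 250 bases upstream of the annotated start are given for Cebpa, Cebpb and the 2 annotated starts of Runx1. Sequences are from RefSeq, build GRCm38.p6, on the coding strand, and 5 of the 10 genes had an entry (8 windows). Capitals mark matches, on either strand, to the TATA box word TATAAA, to the word CCAAT and to the Ets word CCGGAA. The shorter Ets core GGAA was not searched and is not marked where it occurs. Also searched were TTGCNNAA for C/EBP and TGTGGT for Runx, and neither matched in these 4 windows.
Cebpa, chr7:35119043-35119292, + strand: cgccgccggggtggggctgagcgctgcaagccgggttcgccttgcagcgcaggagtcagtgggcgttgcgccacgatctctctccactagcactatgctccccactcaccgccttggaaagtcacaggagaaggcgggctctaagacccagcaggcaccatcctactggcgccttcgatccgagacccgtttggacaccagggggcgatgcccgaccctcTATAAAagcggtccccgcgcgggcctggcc
Cebpb, chr2:167688665-167688914, + strand: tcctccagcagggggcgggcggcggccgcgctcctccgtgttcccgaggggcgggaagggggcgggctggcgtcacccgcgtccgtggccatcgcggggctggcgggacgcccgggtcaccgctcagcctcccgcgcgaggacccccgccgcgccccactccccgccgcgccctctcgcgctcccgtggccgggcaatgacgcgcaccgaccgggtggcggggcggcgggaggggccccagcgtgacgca
Runx1 start 1, chr16:92826075-92826324, - strand: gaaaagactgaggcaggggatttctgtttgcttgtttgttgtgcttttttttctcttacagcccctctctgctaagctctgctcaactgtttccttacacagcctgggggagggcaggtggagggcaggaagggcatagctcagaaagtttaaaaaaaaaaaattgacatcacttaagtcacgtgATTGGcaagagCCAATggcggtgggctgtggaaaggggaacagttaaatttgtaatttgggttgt
Runx1 start 2, chr16:92697330-92697579, - strand: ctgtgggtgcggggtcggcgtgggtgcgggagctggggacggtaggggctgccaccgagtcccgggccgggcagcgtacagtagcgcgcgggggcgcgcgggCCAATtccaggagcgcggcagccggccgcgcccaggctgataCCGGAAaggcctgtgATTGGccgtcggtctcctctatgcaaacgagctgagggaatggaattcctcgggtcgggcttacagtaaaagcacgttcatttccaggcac

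The windows differed in base composition. The Cebpb window held 41 CpG dinucleotides at 81.6% G and C and the Cebpa window 22 at 66.4%, against a median of 6 CpG and 52.4% over 32851 windows of the same length. The windows of the 2 Runx1 starts were unlike each other, with 2 CpG at 45.6% G and C for start 1 and 27 CpG at 67.6% for start 2. A TATAAA match, held by 12.4% of all windows, began 30 bases before the annotated start of Cebpa. CCAAT, held by 33.8% of all windows, matched at 2 places in each Runx1 window, and CCGGAA, held by 12.0%, matched once in that of start 2. For the words without a match in these windows, the share of all windows was 9.56% for TTGCNNAA and 14.0% for TGTGGT. Elsewhere among the members, TTGCNNAA matched once, in a window of Gfi1. The words do not overlap each other. A match describes letters and not a bound site. The arrays do not separate the starts of a gene, so the signal of Runx1 is not assigned to either.

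Each signal was read against a pair of reference levels. The first was the highest of 15 bacterial control probe sets, whose targets are foreign to mouse, at 95 on array 1 and 76.2 on array 2. The second was the 60th percentile of the array, 346.3 on array 1 and 342.2 on array 2, and a probe set above it on both arrays is called bright. Of the 9 measured genes 6 were bright (66.7%), beside 45.2% of the 8251 named genes. They were Spi1, Ets1, Fli1, Cebpa, Cebpb and Cebpd. All 9 exceeded the bacterial controls on both arrays, as did 73.9% of the named genes. By probe set, 7 of 11 were bright, beside 37.9% of all probe sets, and 10 of 11 exceeded the bacterial controls, beside 65.5%. Elf1, Runx1 and Gfi1 lay between both levels. Because a probe set's signal also depends on its sequence, signals of different genes are not ranked against each other. As a description alone, the median log2 signal was 9.63 for the 9 genes and 8.29 for all named genes.

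**Figure D1:**
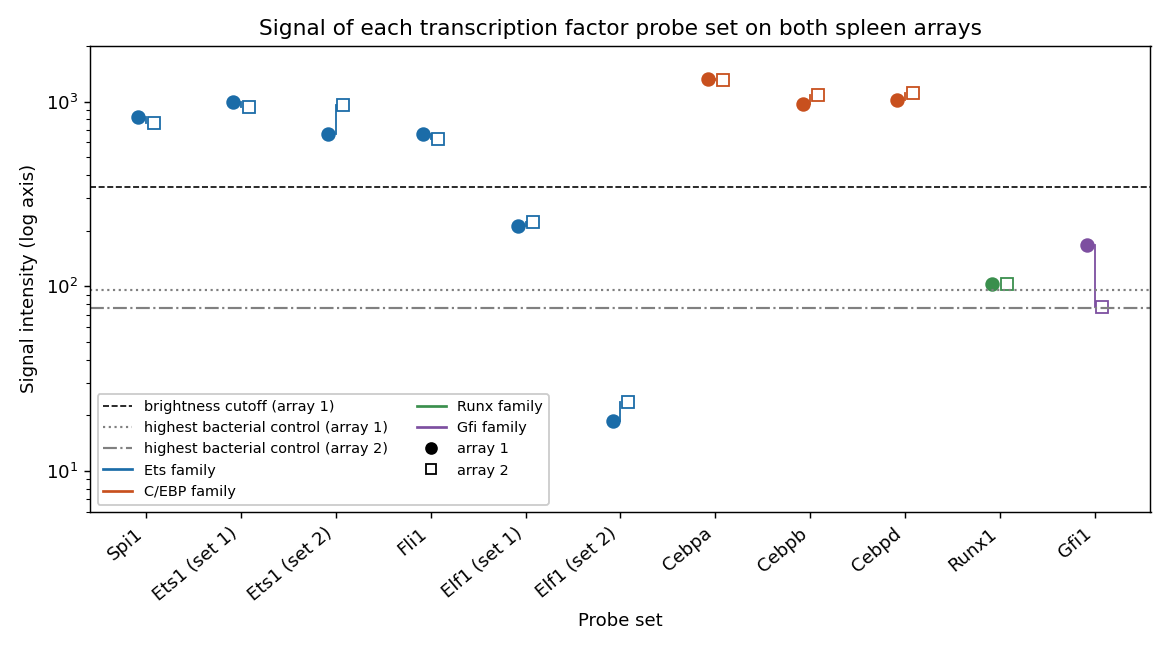
Signal intensity (log axis) of the 11 probe sets on array 1 (filled circles) and array 2 (open squares), coloured by family. The dashed line is the brightness cutoff of array 1, and the dotted and dash-dotted lines are the highest bacterial controls of arrays 1 and 2. The 7 bright probe sets sit between 623.6 and 1330.4, the second Elf1 probe set lies below all lines at 18.6 and 23.6, and Gfi1 is the one with a gap of over 2-fold between its symbols.

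Among the Ets factors, Spi1, the master regulator of myeloid fate, gave 821.5 on array 1 and 768.1 on array 2, a mean of 794.8 ± 37.8 (SD, n = 2 arrays here and below). Both values were above the brightness cutoff. The log2 difference, given throughout as array 2 minus array 1 after centring on the bright probe sets, was -0.10. Fli1, the factor of platelet precursors and endothelium, gave 670.7 and 623.6, or 647 ± 33.3, with a difference of -0.10. It too was bright on both arrays, but its array 2 signal fell short of a cutoff at the 75th percentile, which 5 of the 9 genes passed, beside 28.5% of the named genes.

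Ets1, the lymphocyte Ets factor, was read by 2 probe sets that were both bright. The first (94332_at) gave 989.2 and 934.8, or 962 ± 38.5, a log2 difference of -0.08. The second (94720_at) gave 669.3 and 954.5, or 812 ± 202, a log2 difference of 0.51. The probe sets thus pointed in opposite directions between the same arrays. The second lay outside the range that held 95% of probe sets in the brightest 4th of signals, which was 0.41 in either direction, and the first lay inside it. Averaged over both probe sets, the difference of Ets1 was 0.22. Ets1 and Fli1 are neighbouring protein-coding genes on chromosome 9 in RefSeq (GRCm38.p6), and both were bright.

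The probe sets of Elf1, which binds lymphoid and endothelial enhancers, did not give a common picture. The first (160721_at) gave 210.8 and 222.4, or 217 ± 8.20, with a log2 difference of 0.08. It was above the bacterial controls and below the brightness cutoff on both arrays. The second (161584_r_at) gave 18.6 and 23.6, or 21.1 ± 3.54, near the bacterial control medians of 20.6 and 22.9 and below the floor of 41.8. Its suffix marks relaxed probe selection. A probe set's signal also depends on its sequence, so the gap between the 2 cannot be read as a difference in RNA. With the mean over both, the log2 signal of Elf1 was 6.57 in place of 7.76.

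All 3 measured C/EBP factors were bright. Cebpa, the factor that commits progenitors to granulocytes and monocytes, gave 1330.4 and 1313.4, or 1322 ± 12.0, with a log2 difference of -0.02. Its values on the 2 arrays differed by less than those of the other bright members. Cebpb, the factor of demand-driven granulocyte formation and of macrophages, gave 973.4 and 1083.1, or 1028 ± 77.6, a difference of 0.16. Cebpd, the inflammation-linked member, gave 1017.6 and 1108.8, or 1063 ± 64.5, a difference of 0.13. The latter pair were both slightly higher on array 2, within the range of 0.41.

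Runx1 and Gfi1 were measured by 1 dim probe set each. Runx1, the stem cell and lineage factor, gave 102.6 and 102.8, or 103 ± 0.141. The values nearly coincided, a little above the highest bacterial control of each array. In the signal range that holds it, the pooled SD of all probe sets was 0.51 on the log2 scale, so an SD from 2 values does not describe its precision. Gfi1, the repressor that favours neutrophils, gave 166.8 and 77.4, or 122 ± 63.2, a log2 difference of -1.11. Array 2 placed it barely above its highest bacterial control of 76.2. Gfi1 was the one member probe set of 11 that differed by over 2-fold, against 5.13% of all probe sets and 16.2% of those in its own 4th of signals, where 95% differed by less than 1.56.

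Between the arrays the bright members spread as much as other bright probe sets. Their pooled SD was 0.154 on the log2 scale, beside 0.152 over all 4708 bright probe sets, and it was 0.074 without the second Ets1 probe set. Of the 7 bright member probe sets 3 were higher on array 2 and 4 on array 1. Over all 11 the pooled SD was 0.266, and 0.130 without Gfi1. The median log2 difference of the 9 genes was -0.02, beside 0.00 over all named genes. With 1 group of 2 arrays no p-value could be computed for any of these values.

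**Figure D2:**
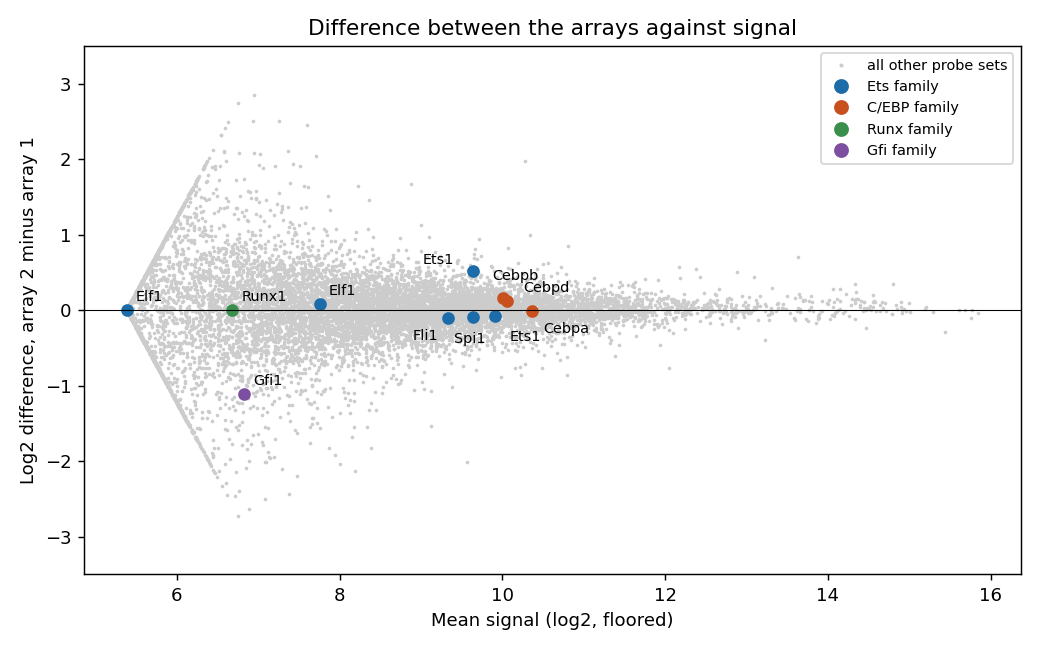
Log2 difference (array 2 minus array 1) against mean log2 signal, with values floored at 41.8, for all probe sets (grey) and the 11 member probe sets (coloured by family). The bright members lie within 0.16 of the line at 0 except for the second Ets1 probe set at 0.51, and Gfi1 lies at -1.11 where the grey cloud is wide.

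The relatives of these factors were counted from lists of family members, partners and textbook target genes. Of the other C/EBP family genes, Cebpg, a partner lacking an activation domain, gave 263 ± 13.2 and was not bright, whereas Ddit3, the stress-induced CHOP, gave 399 ± 29.9 and was. Among 15 other measured Ets genes 5 were bright, beside the 45.2% of named genes. Spib and Spic, the closest relatives of PU.1, were both in that group. Spib, which acts in B cells and plasmacytoid dendritic cells, gave 2401.8 and 2295.6, or 2349 ± 75.1. Spic, the factor of the iron-recycling macrophages of the splenic red pulp, gave 1498.7 and 1375.1, or 1437 ± 87.4. Ets2, Elf4 and Etv4 were the other bright genes, at 513 ± 46.4, 385 ± 22.1 and 852 ± 15.4. The Etv4 value comes from a probe set with the relaxed-selection suffix, and without suffix-marked probe sets Etv4 was not bright. The count was then 4 of 15, beside 43.4% of named genes. It was also 4 when probe sets were averaged, beside 38.3%, and 3 at the 75th percentile, which 28.5% of named genes passed. Those that were not bright included the epithelial factors Elf3, Elf5, Spdef and Ehf. Elf3 gave 143 ± 95.7, and the means of Elf5, Spdef and Ehf ran from 10.8 to 16.7. Gabpa, at 343.3 and 372.9, was also among them and missed the cutoff on array 1 alone. Of the 15 genes 8 exceeded the bacterial controls on both arrays, beside 73.9% of the named genes.

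Cofactors were also measured. Cbfb, the obligate partner of Runx proteins, gave 4042.9 and 4134.6, or 4089 ± 64.8, a log2 difference of 0.03, and was bright. The corepressors Runx1t1, Cbfa2t2 and Cbfa2t3, at 76.3 ± 33.6, 188 ± 6.65 and 295.3 ± 9.76, were not bright. Gfi1b, the relative of Gfi1 that serves red cell and platelet precursors, gave 544.2 and 576.7, or 560.5 ± 23.0, and was bright. Kdm1a, the histone demethylase that Gfi proteins recruit, gave 169.0 and 527.7 and was bright on array 2 alone. In all 5 of 7 genes of the Gfi list were bright, beside the 45.2% of named genes, and 2 passed the 75th percentile, beside 28.5%. The corepressor Rcor1, the histone deacetylases Hdac1 and Hdac2 and the histone methyltransferase Ehmt2 made up the rest of its bright genes, at 494 ± 46.2, 1026 ± 40.4, 626 ± 26.7 and 1566 ± 4.45. Hdac3, at 235 ± 49.7, was not bright.

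Partners and antagonists of PU.1 were bright in 10 of 12 cases, beside the 45.2% of named genes. Irf4 and Irf8, which bind composite sites with PU.1, gave 871 ± 56.6 and 3452 ± 388. Gata1, the erythroid factor that opposes PU.1, gave 457 ± 1.77. The exceptions were Jun, a coactivator of PU.1, at 144 ± 1.06, and Egr2, a macrophage factor, at 324 ± 24.5. When each gene's probe sets were averaged, 6 of the 12 were bright, beside 38.3% of the named genes. At the 75th percentile 6 were bright too, beside 28.5%. Without suffix-marked probe sets 9 of 11 were bright, beside 43.4%.

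Genes that PU.1 is known to activate in myeloid cells were bright in 8 of 10 cases, beside the 45.2% of named genes. The count was 6 with averaged probe sets, beside 38.3%, and 6 at the 75th percentile, beside 28.5%. Without suffix-marked probe sets it was 7 of 10, beside 43.4%. Csf1r, the macrophage growth factor receptor, gave 3581 ± 84.8 and Csf2ra, a chain of the GM-CSF receptor, gave 669 ± 1.63. The integrin chain Itgam, at 171 ± 1.56, and the shared receptor chain Csf2rb, at 153 ± 53.0, were not bright. Genes of granulocytes that depend on C/EBP factors were bright in 9 of 10 cases, beside the 45.2% of named genes. The 75th percentile was also passed by 9, beside 28.5%. Without suffix-marked probe sets 8 of 10 were bright, beside 43.4%. Csf3r, the G-CSF receptor, gave 956 ± 163 and the primary granule enzyme Mpo gave 1206 ± 14.6. The probe set used for Mpo carries the suffix _s_at, and its other probe set was not bright. The secondary granule genes Ltf, Camp and Ngp, known to need C/EBPε, gave 1376 ± 292, 6474 ± 68.3 and 4807 ± 277. Mmp8, a collagenase that is also of the secondary granules, gave 54.1 ± 17.5 and was not bright.

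The lists for the Ets and Runx factors outside the myeloid lineage differed in their counts. Of 8 lymphocyte genes 6 were bright, beside the 45.2% of named genes. With averaged probe sets 5 were bright, beside 38.3%, and 4 passed the 75th percentile, beside 28.5%. The 6 bright genes included Cd3e at 1190 ± 48.5 and Cd3d at 590.0 ± 26.3. Il2ra, the inducible interleukin-2 receptor chain, gave 29.9 ± 2.76 and Il2rb gave 265 ± 133, and neither was bright. Of 3 measured platelet genes 1 was bright, beside the 45.2% of named genes. Gp9, at 475 ± 105, was the bright one, and Gp5 and Pf4, at 145 ± 102 and 61.5 ± 20.7, were not bright. Over the 9 lists 46 of 71 measured genes were bright, beside the 45.2% of named genes. With averaged probe sets 37 of 71 were bright, beside 38.3%. The difference in share between lists was not tested.

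**Figure D3:**
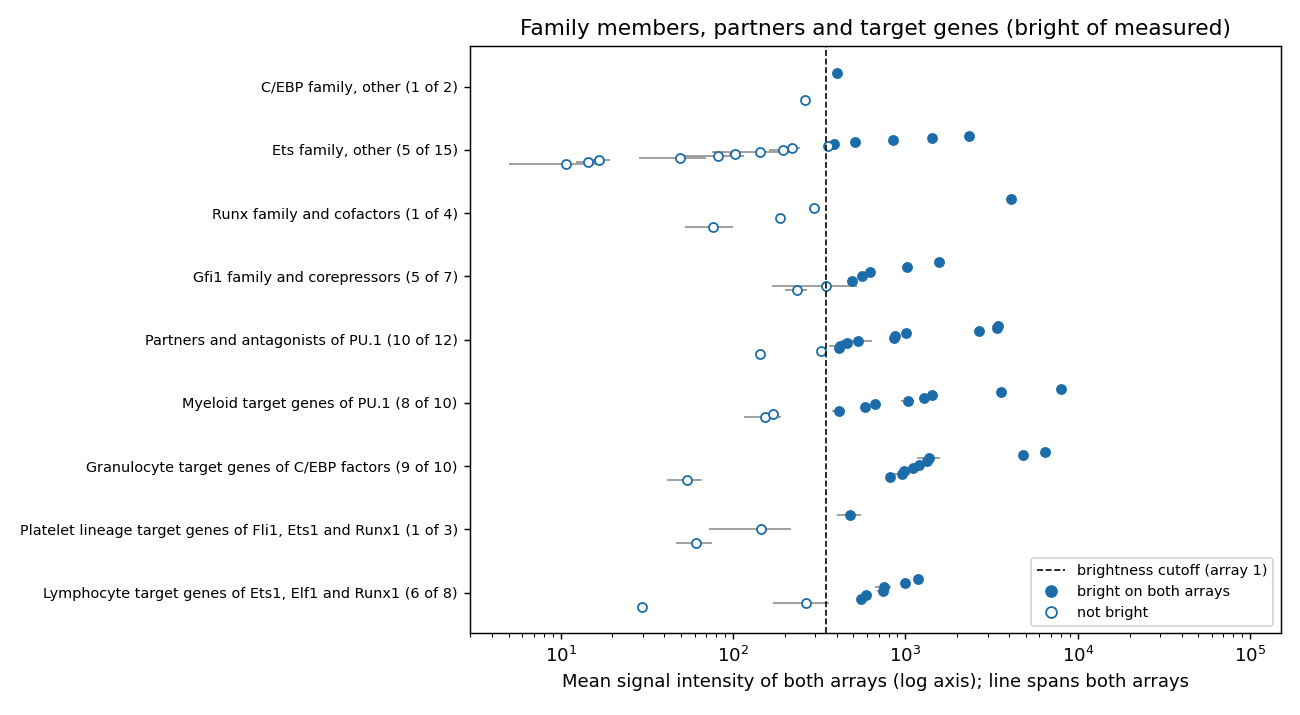
Mean signal intensity (log axis) of each measured gene in the 9 lists, with a line spanning both arrays, filled where bright on both arrays and open where not. The dashed line is the brightness cutoff of array 1, and the number bright of those measured stands beside each list name. Granulocyte targets sit to the right of the line apart from Mmp8, and most of the other Ets genes sit to its left.

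Whole spleen holds many cell types, and fewer cells of a type and less RNA per cell cannot be told apart. Defining markers of macrophages (6 of 6), neutrophils (6 of 6), B cells (4 of 4), T cells (4 of 4) and red cell precursors (4 of 4) were bright. The share of named genes was 45.2%. The markers were chosen with earlier results of these data known, so these counts are a description alone. Means of these markers ran from 457 to 12732. Summed signals were 22577 and 22268 on arrays 1 and 2 for macrophages, 30016 and 32463 for neutrophils and 26931 and 27622 for B cells. They were 3050 and 3127 for T cells and 16993 and 17434 for red cell precursors. Here and below, a sum compares the arrays only. The sums hold different genes and probe sets, so they are not ranked between cell types. Endothelial markers, of cells that also use Fli1, Ets1 and Elf1, were bright in 1 of 5 cases (Vwf), with sums of 1512 and 1635. Within these sums Pecam1 gave 76.3 on array 1 and 285 on array 2. Platelet markers were bright in 1 of 3 cases, with sums of 669 and 694. These are the same measured genes as the platelet targets above. Other marker lists also share genes with the lists above. Ngp, Ltf, Camp and Lcn2 are granulocyte targets, Cd3e, Cd3d and Cd3g lymphocyte targets, Csf1r a PU.1 target and Gata1 a PU.1 antagonist. The marker counts are therefore not separate from the list counts. With averaged probe sets the counts were 4 for macrophages, 3 for T cells and 0 for endothelium, beside 38.3% of named genes. At the 75th percentile the endothelial count was 0 too. All 7 measured acinar genes of the pancreas, the organ beside the spleen, were bright too, with sums of 59916 and 61932. These sums include suffix-marked probe sets of Ctrb1, at 23276 and 25030, and of Prss2, at 11363 and 11507. Without suffix-marked probe sets 5 of 5 acinar genes were bright, beside 43.4% of named genes. The part of any of these cell types in the signal of a transcription factor was not tested.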

How the data were processed

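Spleen RNA was measured on 2 arrays, with 1 signal intensity per probe set, on a linear scale as deposited. The deposited intensities of both arrays had the same trimmed mean, 500.265 and 500.278 with 2% left out at each end, so they had been scaled before deposit. Which software made them is not given in these sources. With arrays, precision is limited by their number.

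From 12488 probe sets 66 controls were left out. Signals were floored at the 20th percentile of each array (41.8 on both), put on the log2 scale and compared between the arrays after subtracting the median difference of bright probe sets. A gene took the brightest, by mean log2 signal, of the probe sets that name it alone. Gene symbols come from the platform's annotation, and the gene identifiers of all 9 measured members were found under the same symbol in the RefSeq table of GRCm38.p6. The pooled SD is the root of the mean squared log2 difference divided by 2, checked on simulated data. Spread was read within 4 groups of probe sets of equal size by mean signal. Named genes were the members with every probe set and the first 2 measured genes of each list, plus all genes behind a count of 5 or fewer. Other list genes were named after their values were seen. Members and lists were chosen with earlier results of these data known. No test was possible with 1 group. Alternatives changed the floor, scaling, centring, brightness cutoff and probe set rule, or used 1 array alone. Python 3.11.15, numpy 2.4.6, pandas 2.3.3, statsmodels 0.14.6 and matplotlib 3.10.9 were used.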

Additional observations from a re-analysis of the deposited data

How the results depend on the processing

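The count of 6 bright genes of 9 was the same with probe sets averaged (38.3% of named genes bright) and without suffix-marked probe sets (43.4%). It was also the same with the cutoff at the 50th percentile (55.7%) and on each array alone (47.6% on each). The share of named genes thus moved while the member count did not. No floor, the pseudocount of 16, quantile and loess normalization and no centring keep the order within an array or act on differences alone, so they cannot move a probe set across the cutoff and their equal counts say nothing about stability. The member count was 5 at the 75th percentile (28.5% of named genes), where Fli1 dropped out, and 9 with the highest bacterial control as cutoff (73.9%). The pooled SD over member probe sets, 0.266, ranged from 0.243 with the pseudocount to 0.279 without suffix-marked probe sets. The count of bright list genes, 46 of 71, ranged from 31 at the 75th percentile (28.5% of named genes) to 59 at the highest bacterial control (73.9%). It was 37 with probe sets averaged (38.3%) and 42 of 70 without suffix-marked probe sets (43.4%). On array 2 alone it was 49 and on array 1 alone 46, beside 47.6% of named genes on each. Of the 63 alternative values of the members' log2 differences, 62 moved by less than the pooled SD of their signal range, and Ets1 with the mean over probe sets, at 0.22, moved by more. For mean log2 signal 60 of 63 moved by less. The exceptions were Elf1 with the mean over probe sets and Gfi1 on either array alone, at 6.27 on array 2 and 7.38 on array 1. Signal near the bacterial controls limits what Runx1, Gfi1 and the second Elf1 probe set can show. No paired analysis was possible because there is 1 group.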
